A study of Mus musculus with 18 samples.

Results

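The genes described here carry glucose into the cell, break it down to pyruvate and lactate, or store it as glycogen. They were taken from a list of 41 gene symbols, and each gene was read from the probe set with the highest mean signal over 18 arrays. Of the 41, 35 had a gene probe set of 1 symbol and all 35 passed the filter on low signal. Gapdh was read only from control sets of the array, and 5 genes were not analysed here. The whole table held 18193 genes, of which 13359 were tested.

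Glucose enters heart muscle through the carriers Slc2a1 (GLUT1) and the insulin-responsive Slc2a4 (GLUT4), and hexokinases trap it as glucose 6-phosphate. From there it passes down glycolysis, where phosphofructokinase is the main control point, or is stored as glycogen by glycogenin, glycogen synthase and the branching enzyme. The healthy adult heart takes most of its energy from fatty acids, and its use of glucose shifts with feeding, insulin and fat supply.

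The arrays measured RNA from the ventricular myocardium of mice in 4 groups. Wild type C57Bl/6J mice (n = 4) were 6 to 8 months old. The other groups were C57Bl/6J ob/ob mice, which lack functional leptin in every tissue and become obese, aged to 6 months and then treated for 1 month. They went on feeding ad libitum (n = 4), were given only as many calories as leptin treated animals ate (n = 5), or received leptin from osmotic mini-pumps (n = 5). The restricted and leptin groups were thus matched in food and differed in leptin, and all 3 ob/ob groups share the genotype.

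The arrays were alike in signal, with medians of 22.3 to 31.8, and correlations between arrays were 0.943 to 0.971. The 3' to 5' ratio of Gapdh, a measure of RNA integrity, was 0.797 to 0.868. All 12 markers listed for ventricular muscle were present in every group, and their presence does not show that atrial muscle was absent. Of 12 skeletal muscle markers, 5 (Myh1, Myh2, Myh4, Tnnt3 and Actn3) stayed under a signal of 20 on every array. The other 7 passed the filter on low signal. Among these, Myot had group means of 1694 to 2070, and Mybpc2 averaged 46.7 under restriction and 122 with leptin. Whether any skeletal muscle RNA entered the samples was not tested. In calorie restricted replicates 2 and 3 the atrial light chain Myl7 stood at 3448 and 3548, against 3.58 to 635 on the other restricted arrays, so calls that rest on this group are also given without these arrays.

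Every call among these genes came from a comparison that involves the calorie restricted hearts. Against ad libitum feeding, the liver type phosphofructokinase subunit Pfkl and hexokinase 2 (Hk2) fell, and the muscle fructose bisphosphatase Fbp2, which runs the phosphofructokinase step backwards, rose 1.89-fold. That is 3 of 35 genes called (8.57%), beside 5.42% of all genes, of which 2.46% were higher and 2.96% lower. A call means a limma adjusted p under 0.05, with adjustment over all tested genes. Ad libitum ob/ob hearts differed from wild type in 0 of the 35 by limma (7 at an unadjusted p under 0.05), beside 0.299% of all genes called. Leptin treated hearts differed from ad libitum hearts in 0 of the 35 (2 at an unadjusted p under 0.05), beside 0.644% of all genes, and from wild type in 0 of the 35 (5 at an unadjusted p under 0.05), beside 0.00749%. Between the groups matched in food, leptin against calorie restriction, 5 of 35 were called (14.3%, 4 higher and 1 lower with leptin), beside 13.6% of all genes, 7.91% higher and 5.73% lower. Calorie restriction against wild type called 5 of 35 (14.3%, 1 higher and 4 lower), beside 11.3% of all genes, 5.02% higher and 6.24% lower. These shares were near those of all genes, and the counts are read here as counts of single genes only. Without restricted replicates 2 and 3, 2 genes were called against ad libitum, 3 for leptin against restriction and 2 against wild type. The count against wild type was also 3 without restricted replicate 2, restricted replicate 3, wild type replicate 2 or wild type replicate 3. Quantile normalization gave 1 higher and 5 lower for restriction against ad libitum, in place of 1 higher and 2 lower. The share of all genes called under these alternatives is not given here, so these counts too are of single genes only. The median log2 change over the 35 was -0.03 for restriction against ad libitum and 0.02 for leptin against restriction, beside -0.0016 and -0.03 for all genes. The comparisons share arrays: ad libitum arrays enter 3 of them and restricted arrays enter 3, so their values are not independent.

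**Figure D1:**
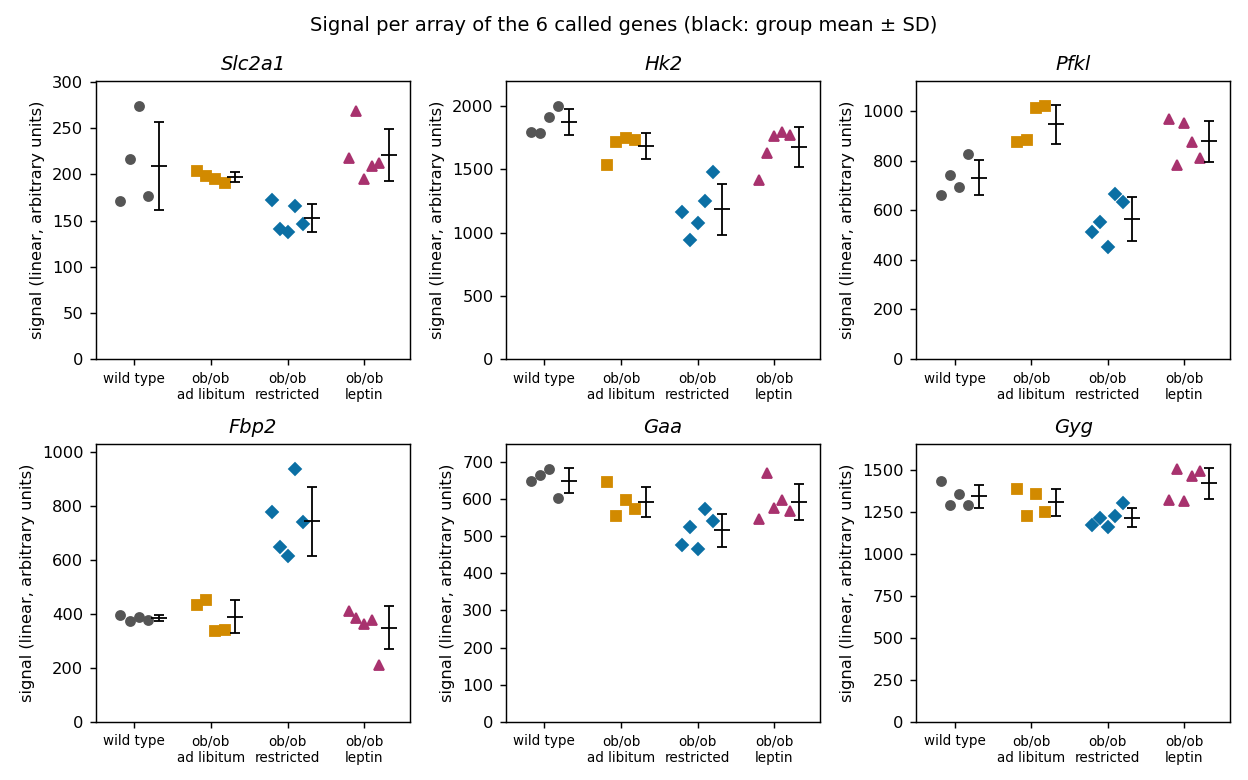
Signal of the 6 called genes on each array (vertical axes, linear MAS5 signal from 0), with 1 point per array in wild type, ad libitum, calorie restricted and leptin treated mice and bars for the group mean ± SD. Every restricted array lies above all others for Fbp2, and every restricted array lies below all ad libitum and wild type arrays for Hk2.

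Because the called genes answered in different directions, the stretch of 250 bases upstream of the annotated start is shown for the 4 with the largest changes. The sequences are RefSeq promoter windows on GRCm38.p6, written 5′ to 3′ on the gene's strand. Windows were searched on both strands for the E-box core CACGTG, which basic helix-loop-helix factors bind. The shorter ACGTG, the core of hypoxia response elements, lies within it. The search also covered AGGTCA, the core that many nuclear receptors bind, and the binding site of the muscle factor MEF2 by name. Capitals mark matches. The Hk2 window is at chr6:82774455-82774704 on the minus strand, that of Slc2a1 at chr4:119108495-119108744 on the plus strand, that of Pfkl at chr10:78009808-78010057 on the minus strand and that of Fbp2 at chr13:62858401-62858650 on the minus strand.
Hk2: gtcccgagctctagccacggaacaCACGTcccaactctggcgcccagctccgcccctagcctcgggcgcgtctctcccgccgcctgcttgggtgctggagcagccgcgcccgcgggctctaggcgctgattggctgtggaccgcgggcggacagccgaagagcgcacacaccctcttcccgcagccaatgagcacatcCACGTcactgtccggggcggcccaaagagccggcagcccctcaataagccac
Slc2a1: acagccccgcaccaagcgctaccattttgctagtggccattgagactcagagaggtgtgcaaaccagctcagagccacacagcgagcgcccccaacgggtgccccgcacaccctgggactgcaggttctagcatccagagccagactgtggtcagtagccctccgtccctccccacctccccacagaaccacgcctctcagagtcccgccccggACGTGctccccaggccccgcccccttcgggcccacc
Pfkl: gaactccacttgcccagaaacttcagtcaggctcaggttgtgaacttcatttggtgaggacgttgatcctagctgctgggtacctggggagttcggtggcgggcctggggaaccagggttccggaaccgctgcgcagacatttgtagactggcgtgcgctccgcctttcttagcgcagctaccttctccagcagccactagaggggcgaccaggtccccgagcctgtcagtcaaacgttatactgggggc
Fbp2: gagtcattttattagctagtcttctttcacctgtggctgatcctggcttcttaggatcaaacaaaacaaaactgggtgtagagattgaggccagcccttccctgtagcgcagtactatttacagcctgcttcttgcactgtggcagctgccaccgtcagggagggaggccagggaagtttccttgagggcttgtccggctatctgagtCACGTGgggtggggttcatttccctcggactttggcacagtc

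The Hk2 window held ACGTG at positions -226 and -52 from the start, and the Slc2a1 window held it at -36. Fbp2, the gene that rose, held the longer CACGTG at -42. None of the 4 motifs was found in the Pfkl window, which says only that these letters are absent from it. Windows were sought for the tested genes and for Gapdh, and 35 genes had at least 1. Of these 35, 19 had ACGTG in a window (23 of their 49 windows, 46.9%), beside 16.6% of all 32851 windows. CACGTG was found in 8 of 35 (8 of 49 windows, 16.3%), beside 6.02% of all windows, and the 8 were Fbp2, Gaa, Ldha, Pfkfb2, Pfkfb3, Pfkm, Ppp1r3c and Slc16a1. The windows of these 35 genes were also richer in G and C, at 59.8% against 53.2% of all windows, and both motifs contain CG. AGGTCA stood in 18.4% of the genes' windows beside 14.0% of all, and the MEF2 site in 0 of 49 beside 0.350%.

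At the entry step, Slc2a1 read 171, 216, 274 and 176 in wild type hearts and 204, 198, 195 and 191 in ad libitum hearts. It read 172, 141, 138, 166 and 147 under calorie restriction and 218, 268, 196, 209 and 213 with leptin. Every restricted array was below every ad libitum and leptin array, while 1 wild type array, at 171, lay within the restricted range. Restricted replicates 2 and 3 were the lowest. GLUT1 mRNA was 1.43-fold higher with leptin than under restriction (log2 change 0.52 ± 0.12 SE, limma adjusted p = 0.00781) and lower under restriction than in wild type (-0.42 ± 0.12, limma adjusted p = 0.0370). Against ad libitum the value of -0.36 was not called (limma adjusted p = 0.107). Other Slc2a1 probe sets gave 0.39 and 0.32 for leptin against restriction and were not called. Without restricted replicates 2 and 3 neither call held, with limma adjusted p = 0.0723 against leptin and 0.191 against wild type. The muscle carrier Slc2a4 averaged 1785 ± 170 (SD, n = 4) in wild type, 1859 ± 172 (n = 4) ad libitum, 1531 ± 205 (n = 5) under restriction and 1873 ± 246 (n = 5) with leptin. Its lowest mean was also the restricted one, but its change from ad libitum (-0.28, limma adjusted p = 0.174) and from leptin (0.29, limma adjusted p = 0.0862) was not called. Quantile normalization called both, at -0.34 (limma adjusted p = 0.0407) and 0.29 (limma adjusted p = 0.0357).

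Hexokinase 2, the insulin-responsive hexokinase of muscle, read 1792, 1789, 1917 and 1999 in wild type and 1531, 1719, 1749 and 1736 in ad libitum hearts. Restricted arrays read 1165, 945, 1080, 1250 and 1482, and leptin arrays 1417, 1631, 1763, 1793 and 1768. The restricted arrays lay under every wild type and ad libitum array and overlapped the leptin group through its lowest array, with restricted replicates 2 and 3 the lowest again. Hk2 was 1.43-fold higher ad libitum than under restriction (restriction minus ad libitum -0.52 ± 0.11, limma adjusted p = 0.0105) and 1.60-fold higher in wild type (-0.67 ± 0.11, limma adjusted p = 9.88e-04). With leptin it was higher than under restriction by 0.51 ± 0.10 (limma adjusted p = 0.00407). Without restricted replicates 2 and 3 the difference from ad libitum was -0.38 and no longer called (limma adjusted p = 0.0788), while those from wild type (-0.53, limma adjusted p = 0.00842) and leptin (0.37, limma adjusted p = 0.0401) were. Hexokinase 1, the form that does not depend on insulin, averaged 962 ± 112, 1043 ± 80.3, 1041 ± 85.0 and 1107 ± 109 in the wild type, ad libitum, restricted and leptin groups, and its 6 differences lay between -0.0034 and 0.20 with none called.

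In upper glycolysis 1 gene was called, a subunit of phosphofructokinase. Phosphofructokinase is built from muscle (Pfkm), liver (Pfkl) and platelet (Pfkp) type subunits. Pfkl read 663, 743, 692 and 826 in wild type, 874, 883, 1012 and 1019 ad libitum, 512, 554, 453, 667 and 634 under restriction and 967, 782, 952, 876 and 811 with leptin. Restricted arrays were below every ad libitum and leptin array and reached into the wild type range. Pfkl was 1.68-fold higher ad libitum than under restriction (-0.75 ± 0.11, limma adjusted p = 0.00100) and 1.56-fold higher with leptin (0.64 ± 0.11, limma adjusted p = 8.71e-04). Without restricted replicates 2 and 3 these were -0.65 and 0.54, both called (limma adjusted p = 0.0101 in each). Against wild type the difference of -0.38 ± 0.11 was called (limma adjusted p = 0.0389), but not without those arrays (-0.28, limma adjusted p = 0.198). A second Pfkl probe set gave -0.72 for restriction against ad libitum and 0.73 for leptin against restriction, both called, and the remaining set gave -0.01 and -0.39, not called. The ad libitum mean of Pfkl was the highest of the groups, at 947 ± 79.1 (SD, n = 4) against 731 ± 71.3 (SD, n = 4) in wild type, without a call (0.37, limma adjusted p = 0.246).

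The muscle subunit Pfkm differed from wild type the other way by value, with 3222 ± 131 (SD, n = 4) in wild type and 3882 ± 396 (SD, n = 5) under restriction. This difference of 0.26 was not called (limma adjusted p = 0.0713), and quantile normalization lowered it to 0.09. Pfkm was also above wild type by mean ad libitum, at 3723 ± 338 (SD, n = 4), and with leptin, at 3616 ± 283 (SD, n = 5). All 12 ventricular muscle markers were likewise higher by value under restriction than in wild type, with a median difference of 0.26. Of these, 9 had an unadjusted p under 0.05 and none was called by limma. The same 12 were also above wild type by value ad libitum (median 0.18, 1 at an unadjusted p under 0.05). With leptin they were above it too (median 0.22, 5 at an unadjusted p under 0.05). Their summed signal was 77926 to 102297 under restriction and 67317 to 73859 in wild type, and the part of this shift in the values of Pfkm, Aldoa, Pygm and Gapdh was not tested. Pfkp differences lay between -0.07 and 0.28 and none was called. The other genes of upper glycolysis were not called either: the aldolases Aldoa and Aldoc, which cleave fructose bisphosphate, and Tpi1, which interconverts the trioses. Aldoa came nearest, 0.33 above wild type under restriction (limma adjusted p = 0.0896) and 0.10 after quantile normalization. Its means were 4960 in wild type, 5882 ad libitum, 6259 under restriction and 6189 with leptin. The brain type aldolase Aldoc had a mean signal of only 20.5 over the 18 arrays.

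Fbp2 undoes the phosphofructokinase step, turning fructose bisphosphate back into fructose 6-phosphate. It read 397, 374, 388 and 376 in wild type and 433, 451, 335 and 339 ad libitum. Restricted hearts read 777, 647, 614, 937 and 740, and leptin treated hearts 411, 383, 361, 377 and 212. Every restricted array stood above every array of the other groups. The rise over ad libitum was 0.92 ± 0.17 (limma adjusted p = 0.00421), over wild type 0.93 ± 0.17 (limma adjusted p = 0.00223) and over leptin 2.14-fold (leptin minus restriction -1.10 ± 0.16, limma adjusted p = 2.87e-04). Without restricted replicates 2 and 3 it was 1.07 over ad libitum (limma adjusted p = 0.00897), -1.25 for leptin against restriction (limma adjusted p = 0.00113) and 1.08 over wild type (limma adjusted p = 0.00463). On restricted replicates 1 to 5, Fbp2 stood beside an atrial Myl7 signal of 635, 3448, 3548, 3.58 and 159. The part of atrial RNA in the Fbp2 values was not tested. The bifunctional enzymes that set the level of fructose 2,6-bisphosphate, the activator of phosphofructokinase, were not called in any comparison. The heart type Pfkfb2 averaged 161 ± 35.1, 135 ± 28.9, 132 ± 14.6 and 138 ± 21.8 in the wild type, ad libitum, restricted and leptin groups, and Pfkfb3 and Pfkfb4 had signals of 23.0 to 56.0 and 31.9 to 65.6.

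Relative to the wild type mean, the log2 ratio of Pfkl to Pfkm was 0.17 ± 0.06 (SD, n = 4) ad libitum, -0.64 ± 0.15 (SD, n = 5) under restriction and 0.10 ± 0.19 (SD, n = 5) with leptin. The restricted arrays, at -0.87 to -0.51, were all below the lowest array of the other groups, a leptin array at -0.16. The restricted mean without replicates 2 and 3 was -0.55 ± 0.03 (SD, n = 3). The ratio of Hk2 to Hk1 was -0.27 ± 0.05 ad libitum, -0.79 ± 0.26 under restriction and -0.37 ± 0.19 with leptin. Here restricted arrays (-1.22 to -0.57) lay below all ad libitum arrays (-0.34 to -0.21) and overlapped the leptin arrays (-0.67 to -0.13), and without restricted replicates 2 and 3 the restricted mean was -0.64 ± 0.06 (SD, n = 3). The ratio of Slc2a1 to Slc2a4 moved little, to -0.12 ± 0.16, -0.20 ± 0.27 and 0.03 ± 0.08, within the wild type SD of 0.37. Such ratios show unequal change of a pair of probe sets and not the share of each isoform.

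**Figure D2:**
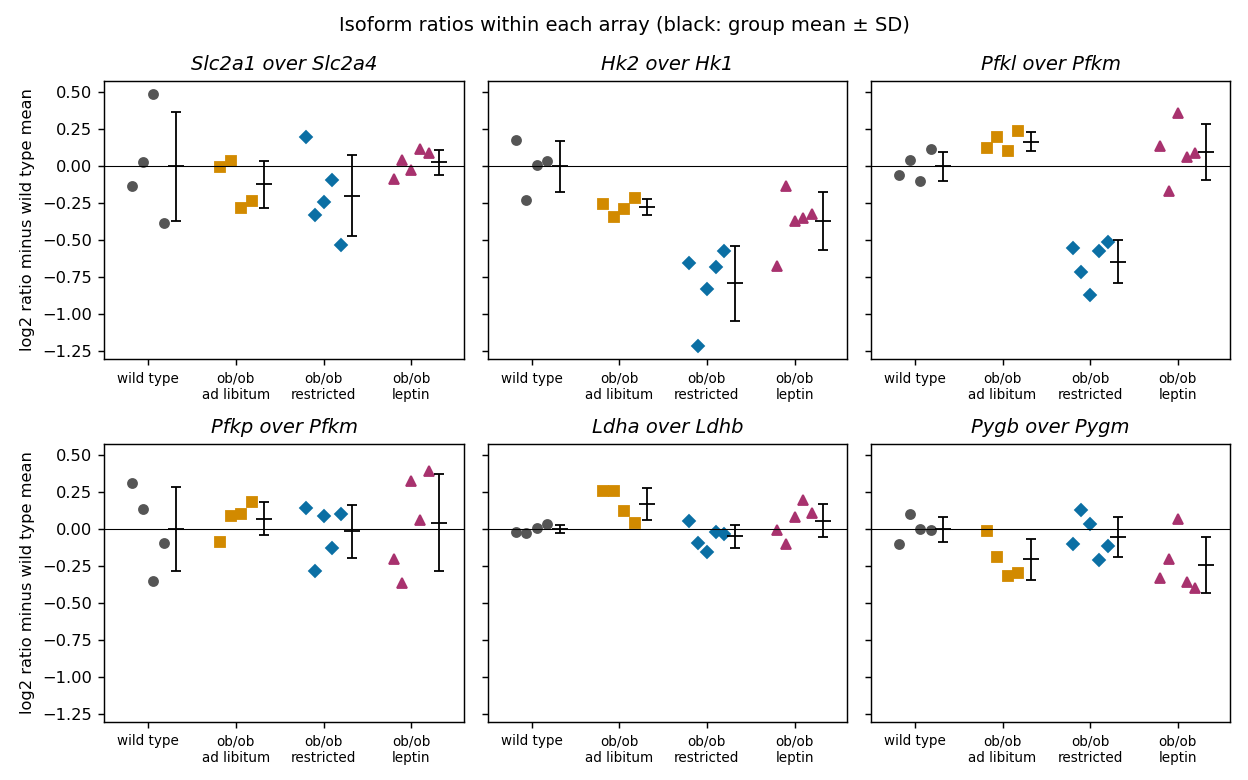
Log2 ratio of paired isoforms on each array minus the wild type mean (vertical axis), by group, with 1 point per array and the group mean ± SD. The ratio of Pfkl to Pfkm sits between -0.87 and -0.51 on the 5 restricted arrays, below every other array.

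Lower glycolysis, which turns trioses into pyruvate, had 5 genes tested and 0 called in each of the 6 limma comparisons. Beside it, 0.00749% to 13.6% of all genes were called, shares at which 5 genes give few calls or none. The step held Pgk1, which makes ATP, the mutases Pgam1 and Pgam2, the muscle enolase Eno3 and the pyruvate kinase Pkm. Some alternatives added calls for restriction against wild type: Eno3 was -0.19 after quantile normalization (limma adjusted p = 0.0379) in place of 0.01, and Pgam1 was called with a variance trend (limma adjusted p = 0.0455). Differences of the muscle mutase Pgam2 lay between -0.01 and 0.12. The non-muscle form Pgam1 had the smallest p of this step, at -0.37 for restriction against wild type (limma adjusted p = 0.0843) and -0.37 against ad libitum (limma adjusted p = 0.121). Lactate and pyruvate handling, also with 5 genes tested, gave 0 calls beside the same shares of all genes. Ldha was called lower for restriction against ad libitum after quantile normalization (-0.24, limma adjusted p = 0.0182). Ldha, the lactate dehydrogenase subunit typical of skeletal muscle, was 0.34 above wild type in ad libitum hearts (limma adjusted p = 0.151), and the heart subunit Ldhb was 0.17 above. The lactate carrier Slc16a1 moved by 0.01 to 0.08, the mitochondrial pyruvate carrier subunit Mpc1 by -0.14 to 0.15, and the carrier Slc16a3 had a mean signal of only 21.2. Gapdh could be read from control sets alone, whose middle set averaged 5730 ± 158 (SD, n = 4) in wild type, 6576 ± 513 (SD, n = 4) ad libitum, 6918 ± 770 (SD, n = 5) under restriction and 6563 ± 756 (SD, n = 5) with leptin, and it was not tested.

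**Figure D3:**
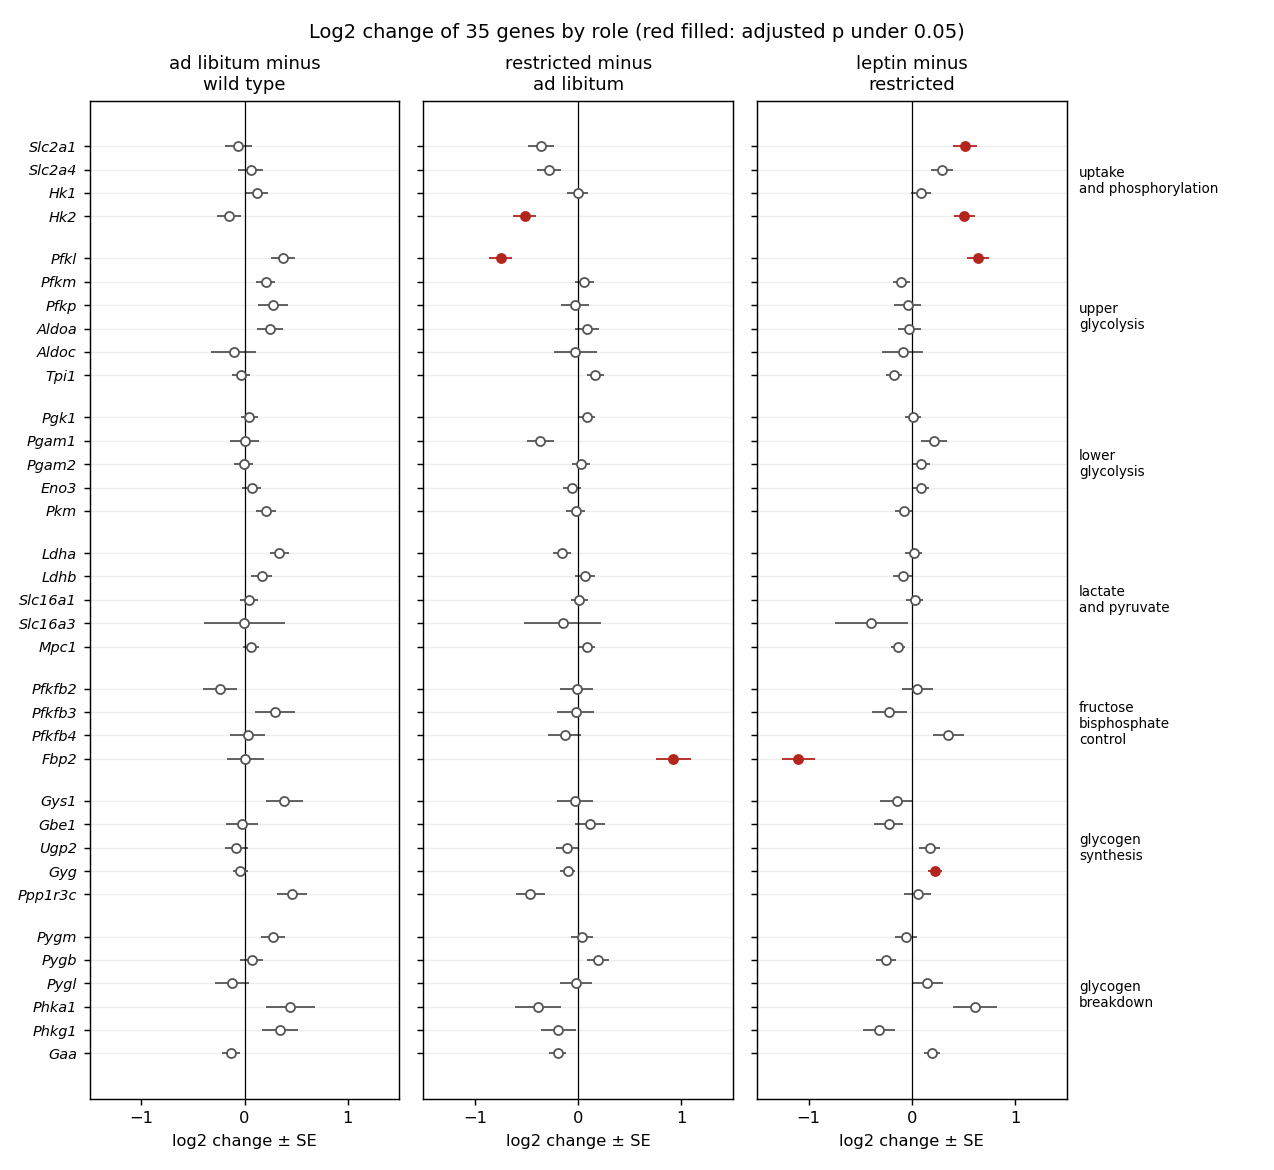
Log2 change ± SE (horizontal axes) of each of the 35 genes (rows, ordered by role) in ad libitum minus wild type, restricted minus ad libitum and leptin minus restricted hearts, with called genes in filled red. Pfkl stands at -0.75 and Fbp2 at 0.92 in the middle panel, both lie on the other side of 0 in the right panel, and no gene is filled in the left panel or among lower glycolysis.

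Among the glycogen genes, glycogenin (Gyg), the protein primer of new particles, read 1434, 1289, 1356 and 1294 in wild type, 1389, 1229, 1359 and 1249 ad libitum, 1175, 1215, 1160, 1227 and 1304 under restriction and 1321, 1506, 1317, 1466 and 1493 with leptin. Every leptin array was above every restricted array, by a small margin. The difference was 0.22 ± 0.07 (limma adjusted p = 0.0375), was not called without restricted replicates 2 and 3 (limma adjusted p = 0.163), and a second probe set gave 0.15 (limma adjusted p = 0.287). Acid alpha-glucosidase (Gaa), which digests glycogen in lysosomes, read 649, 665, 681 and 602 in wild type, 646, 554, 597 and 572 ad libitum, 476, 525, 467, 573 and 541 under restriction and 546, 672, 577, 598 and 567 with leptin. All restricted arrays were below all wild type arrays. The difference from wild type was -0.33 ± 0.08 (limma adjusted p = 0.0159), but another Gaa probe set gave -0.02 (limma adjusted p = 0.964), and without restricted replicates 2 and 3 the call was lost (limma adjusted p = 0.0849).

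Ppp1r3c, the subunit that brings protein phosphatase to glycogen and activates its synthesis, had its highest mean ad libitum. It averaged 1956 ± 313 (SD, n = 4) in wild type, 2681 ± 322 (SD, n = 4) ad libitum, 1963 ± 385 (SD, n = 5) under restriction and 2015 ± 156 (SD, n = 5) with leptin. The differences were 0.46 for ad libitum against wild type (limma adjusted p = 0.240), -0.46 for restriction against ad libitum (limma adjusted p = 0.0628) and -0.41 for leptin against ad libitum (limma adjusted p = 0.202), and none was called. Under 5 alternatives restriction against ad libitum was called, quantile normalization among them (-0.54, limma adjusted p = 0.0167). Muscle glycogen synthase Gys1 averaged 444 ± 88.5, 585 ± 141, 569 ± 108 and 508 ± 46.4 in the same order, with 0.38 for ad libitum against wild type (limma adjusted p = 0.485). The phosphorylases Pygm, Pygb and Pygl, which release glucose from glycogen, were not called. Pygm came nearest at 0.31 above wild type under restriction (limma adjusted p = 0.0807). It averaged 2270 in wild type, 2754 ad libitum, 2825 under restriction and 2715 with leptin. The phosphorylase kinase subunits Phka1 and Phkg1 were not called, although Phka1 was 0.61 higher with leptin than under restriction by value (limma adjusted p = 0.0659). The branching enzyme Gbe1 and Ugp2, which makes the glucose donor of glycogen synthesis, were not called in any comparison, although Ugp2 was called for restriction against wild type after quantile normalization (-0.30, limma adjusted p = 0.0328).

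Beyond these 35, 73 further genes of glucose use and its control were listed, and 63 were tested. Restriction against ad libitum called 6 of the 63 (5 higher, 1 lower), or 9.52% beside 5.42% of all genes. Leptin against restriction called 10 (3 higher, 7 lower), or 15.9% beside 13.6%, and restriction against wild type 11 (6 higher, 5 lower), or 17.5% beside 11.3%. The 3 comparisons of ad libitum and leptin hearts with wild type and with each other called 0 of 63 by limma. Beside this, 0.299% of all genes were called for ad libitum against wild type and 0.644% for leptin against ad libitum. For leptin against wild type the share was 0.00749%. At such shares 63 genes give few calls or none. By list, for restriction against ad libitum, the regulators of uptake and glycolysis had 3 of 13 called, all higher, beside 2.46% of all genes called higher. Other genes of glycolysis, lactate and pyruvate had 1 higher and 1 lower of 13. Other glycogen genes had 1 higher of 16 (6.25% called, beside 5.42% of all genes), and 7 further glucose entry genes had 0. These are counts of a few genes and are read as such.

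The regulators that rose include both arrestin-domain genes that hold back glucose uptake. Arrdc4 was 1.60 ± 0.22 higher under restriction than ad libitum (limma adjusted p = 6.26e-04) and differed by -1.85 between leptin and restriction (limma adjusted p = 4.04e-05). Leaving out restricted replicates 2 and 3 gave 1.31 and -1.56, and with the mean over its probe sets 0.85 and -0.78, all called. Txnip, which removes glucose carriers from the cell surface, was 0.65 ± 0.15 higher under restriction than ad libitum (limma adjusted p = 0.0185). With leptin it was also higher than ad libitum by value, not called (limma adjusted p = 0.234). Its differences of leptin from restriction and of restriction from wild type were not called. The Txnip call was lost without restricted replicates 2 and 3 (limma adjusted p = 0.0912). Myc, a transcription factor that activates glycolytic genes, was 1.27 ± 0.36 higher (limma adjusted p = 0.0483) at low signal, and that call too was lost without these arrays (limma adjusted p = 0.120). Gpd1, which draws glycolytic triose into glycerol phosphate, rose by 0.50 ± 0.11 over ad libitum (limma adjusted p = 0.00982) and differed by -0.72 between leptin and restriction (limma adjusted p = 2.12e-04). Its difference from ad libitum was not called without restricted replicates 2 and 3 (limma adjusted p = 0.0849), whereas that from leptin was (-0.62, limma adjusted p = 0.00354). Pyruvate carboxylase, Pcx, fell by 0.55 ± 0.16 against ad libitum (limma adjusted p = 0.0496), a call that 15 of its alternatives lost, among them leaving out restricted replicates 2 and 3 (limma adjusted p = 0.231). Among glycogen genes the phosphorylase kinase subunit Phka2 rose by 0.41 ± 0.11 (limma adjusted p = 0.0441), also a call that most alternatives lost. Leaving out restricted replicates 2 and 3 was among them (limma adjusted p = 0.0785), as was the mean over its probe sets. Over all alternatives the Phka2 change ranged from 0.02 to 0.47. Nhlrc1, the ubiquitin ligase malin that acts on glycogen proteins, was -0.53 with leptin against restriction (limma adjusted p = 0.00464), and -0.60 without those arrays (limma adjusted p = 0.0112).

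**Figure D4:**
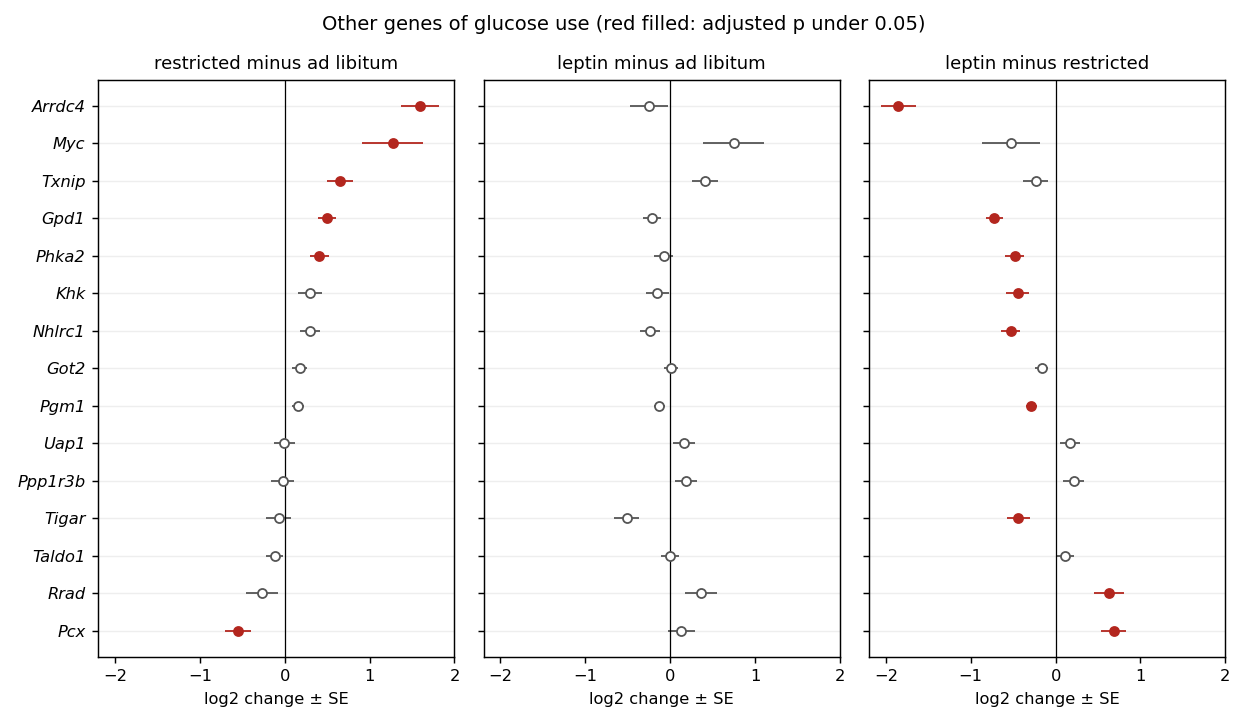
Log2 change ± SE (horizontal axes) of the further genes of glucose use that were called in any comparison, at most 4 a list, in restriction minus ad libitum, leptin minus ad libitum and leptin minus restriction, with called genes in filled red. Arrdc4, at 1.60 and -1.85, is the highest and the lowest of them.

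Other cell types also differed in the restricted hearts. Fibroblast markers summed to a signal of 4598 to 5960 under restriction against 6215 to 6999 ad libitum and 6618 to 8185 with leptin. In wild type they summed to 6048 to 11257. Of these markers, 7 of 9 were called lower than ad libitum, beside 2.96% of all genes called lower. Dcn went the other way by value, with a mean of 3333 under restriction and 2878 ad libitum. Macrophage markers summed to 1782 to 2512 under restriction against 2567 to 3377 ad libitum (3 of 9 called lower), 3148 to 4424 with leptin and 2840 to 5079 in wild type. Endothelial markers summed to 2270 to 2585 against 2584 to 3334 ad libitum (2 of 8 called lower), and overlapped wild type at 2286 to 3022. Adipocyte markers summed to 754 to 1023 under restriction against 450 to 515 ad libitum and 478 to 537 in wild type, most of it Cidea. The part of these shifts in the values of Slc2a1, Hk2, Pfkl, Fbp2, Gyg and Gaa was not tested. In bulk tissue, fewer cells of a type and less RNA per cell cannot be told apart.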

How the data were processed

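Total RNA from ventricular myocardium was hybridised to Affymetrix arrays, 1 array per sample. The values the authors deposited are linear intensities, 1 for each probe set on each array, made with MAS5, per the submitters' processing notes (version and settings: not given in the sources used here). Its trimmed mean (2% cut at each end) was 100.001 on every array, so each array had been scaled to a common level and total RNA per cell cannot be read. Of 45101 probe sets, 64 were controls, 34945 had 1 gene symbol, 932 several and 9160 none in the platform annotation, and only sets with 1 symbol were tested. Entrez identifiers of 34741 sets were found in RefSeq (GRCm38.p6), with 0 symbols changed. Each gene was read from its set with the highest mean.

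Signals were analysed as log2(signal + 5.13), the pseudocount being their 20th percentile, which understates changes of low genes. Genes under the 40th percentile of all sets (4.36) were left out. In R 4.3.3, limma 3.58.1 fitted 1 model over all 18 arrays, with 6 two-sided contrasts and Benjamini-Hochberg adjustment over 13359 genes, and genes were called at an adjusted p under 0.05. Changes carry the SE of the fit, signals the SD. Every adjusted p in the text comes from limma. The p-values reflect only the spread between these arrays, which may be technical in part, and the number of arrays limits the precision. On simulated data with 13359 genes, the fit for calorie restriction against ad libitum found 35% of the genes given a 1.5-fold change. It found 73% of the genes given a 2-fold change. Fewer genes were changed there than were called in the data, so these rates may differ from those in the data.

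The members and lists were chosen with earlier results of these data known. Genes called in any contrast are given on every array, Slc2a1, Slc2a4, Hk1, Hk2, Pfkfb2, Gys1 and Ppp1r3c in any case by group means, other members by counts, ranges and their smallest p, and of each other pathway list at most 4 called genes with the smallest p. Alternatives were other pseudocounts (1 and 16), filters, quantile normalization, the mean over probe sets, a variance trend with robust estimation, only the groups compared, a replicate block, an atrial marker covariate and leaving out arrays.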

Additional observations from a re-analysis of the deposited data

Results flagged for a closer look

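In 8 of 140 groups of 4 or 5 arrays (35 genes in 4 groups), 1 array stood far from the rest by Dixon's criterion, and chance flags about 1 in 20 groups. Fbp2 was 212 in leptin replicate 5, against 361 to 411 in the others. Hk2 was 1531 in ad libitum replicate 1, against 1719 to 1749, and Hk1 was 914 in leptin replicate 2, against 1131 to 1168. Ppp1r3c was 2291 in leptin replicate 3, against 1914 to 1988. Ugp2 was 2348 in calorie restricted replicate 4, against 1916 to 2006. In ad libitum replicate 3, Ldha was 4695 against 4105 to 4194, and Slc16a3 was 6.71 against 31.7 to 32.8. Aldoc was 31.3 in ad libitum replicate 2, against 16.5 to 18.2.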

How the results depend on the processing

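The number of the 35 genes called was 0 under each alternative run for ad libitum against wild type, leptin against ad libitum and leptin against wild type. For calorie restriction against ad libitum it was 3 in the main fit and 6 after quantile normalization. Other alternatives also moved the counts, and smaller moves are not all listed here. For leptin against calorie restriction it was 5, and 3 without restricted replicates 2 and 3. For calorie restriction against wild type, quantile normalization gave 1 higher and 6 lower. The count there was 5 in the main fit, 3 with no filter on low signal and 2 with the mean over probe sets. It was 9 with a variance trend, 2 with only these groups fitted and 3 with the replicate block. Without restricted replicates 2 and 3 it was 2. Leaving out 1 array at a time gave 3 to 4, 4 to 6 and 3 to 6 in these comparisons. With the replicate block the first gave 3 and the next 4. The share of all genes called under each alternative is not given here. A larger or smaller count is therefore not read as a result about these genes. Replicate numbers did not pair the arrays: deviations of same-numbered arrays correlated at a median of -0.03 (-0.18 to 0.34, 25 pairs), and 2 of 18 arrays correlated best with their own number. Of 265 refits of the 13 called values, 222 kept the call and 43 lost it, with no change of sign. Fbp2 in its 3 comparisons, Hk2 in leptin against restriction and restriction against wild type, and Pfkl in restriction against ad libitum and leptin against restriction kept the call in every refit. The Hk2 difference from ad libitum was not called with only these groups fitted, with the atrial covariate (-0.34, limma adjusted p = 0.142) and without restricted replicates 2 and 3. Gyg kept its call in 8 of 21 refits, Pfkl against wild type in 8 of 20 and Slc2a1 against wild type in 9 of 20. Calls gained under an alternative, besides those named with their genes, were Phka1 and Pygb for leptin against restriction and Aldoa, Pfkm and Pygm for restriction against wild type. Quantile normalization moved the median of the 35 from 0.06 to -0.06 in restriction against wild type and from 0.08 to -0.0061 in leptin against wild type, so the sign of these medians is not settled. The cause of these changes was not tested. Low signal limits Aldoc and Slc16a3.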
